A study of Homo sapiens with 16 samples.

Results

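H9 human embryonic stem cells that received siRNA against DSCC1 were compared with cells that received either of 2 control siRNAs. The comparison takes in 7 of the study's 16 RNA-seq libraries, chosen by their labels: 3 with DSCC1 siRNA, 2 with an siRNA against Renilla luciferase (Luciferase) and 2 with a siRNA labelled Control. H9 is an established embryonic stem cell line, and in every group, controls included, it carried the Rex1-EGFP reporter, in which EGFP is driven from the promoter of the pluripotency gene REX1. The cells grew without feeders on Matrigel in mTeSR1. They were transfected with 30 to 50 nM of pooled siRNA, which for DSCC1 and Luciferase was an enzymatically prepared esiRNA, while the labels do not say how the Control siRNA was made. Cells with DSCC1 siRNA were harvested at 72 h. No harvest time is given for the controls, so DSCC1 siRNA and time in culture cannot be told apart where the times differ. The replicates are described as biological, and the labels do not say whether the reporter line is 1 clone.

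DSCC1 encodes a small subunit of CTF18-RFC, a clamp loader that places the PCNA ring on DNA at replication forks. In this complex DSCC1 and CHTF8 bind CHTF18, which sits on the RFC2, RFC3, RFC4 and RFC5 subunits shared with other clamp loaders. The complex binds the leading-strand polymerase and is known for its part in sister chromatid cohesion, the pairing of replicated chromosomes by the cohesin ring. Embryonic stem cells divide fast, and they keep their identity through transcription factors such as POU5F1, SOX2 and NANOG.

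Library totals were 21321347, 25812506 and 24757375 counts with DSCC1 siRNA and ran from 18597262 to 28662389 in the controls. A floor of 3 counts in 1 library was 0.102 to 0.175 CPM after TMM normalisation, the unit used throughout, over all libraries, which covers counting error only. Mitochondrially encoded genes took 33.6, 34.8 and 39.2% of the counts with DSCC1 siRNA and 27.9 to 33.4% in the controls. The control libraries did not all look alike: both replicates numbered 1 stood apart from both numbered 2, whichever siRNA they had received. Results that turn on this split are given below for either replicate number of the controls. Between the control siRNAs themselves, Control against Luciferase, 0 of 19772 genes were called by edgeR's quasi-likelihood test, and by DESeq2 and limma-voom alike, while 211 (1.07%) had an unadjusted edgeR p under 0.05.

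The DSCC1 transcript itself was low in every library that received its siRNA. Its gene lies on the minus strand of chromosome 8 (GRCh38, chr8:119833976-119856010). The counts were 13, 24 and 19 with DSCC1 siRNA, or 0.601, 0.938 and 0.879 CPM after TMM normalisation. The controls had 70 and 129 counts with Luciferase siRNA and 99 and 113 with Control siRNA, or 3.30, 5.16, 3.40 and 3.84 CPM. No library overlapped between the groups, and the mean with DSCC1 siRNA was 20.5% of the control mean. An exact two-sided permutation test over the 7 libraries gave p = 0.0286, the smallest that the 35 possible splits allow. Across all genes, edgeR's quasi-likelihood test gave a log2 fold change of -2.27 (SE 0.71) with a Benjamini-Hochberg adjusted p of 0.486, so the targeted gene was not called. In bulk RNA, fewer cells with the transcript and less of it per cell cannot be told apart. Except for 1 SALL4 siRNA library at 4.64 CPM, the libraries given other siRNAs also lay below the lowest control. The transcript stood at 0.245, 1.79 and 3.27 CPM with SEPHS1 siRNA, between 1.43 and 4.64 CPM with SALL4 siRNA and between 1.88 and 2.88 CPM with VRTN siRNA. Against the SEPHS1 libraries, which were also harvested at 72 h, the DSCC1 transcript differed by -1.12 (SE 0.73, adjusted p = 0.592, edgeR). The plot of the transcript by library shows this order.

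**Figure D1:**
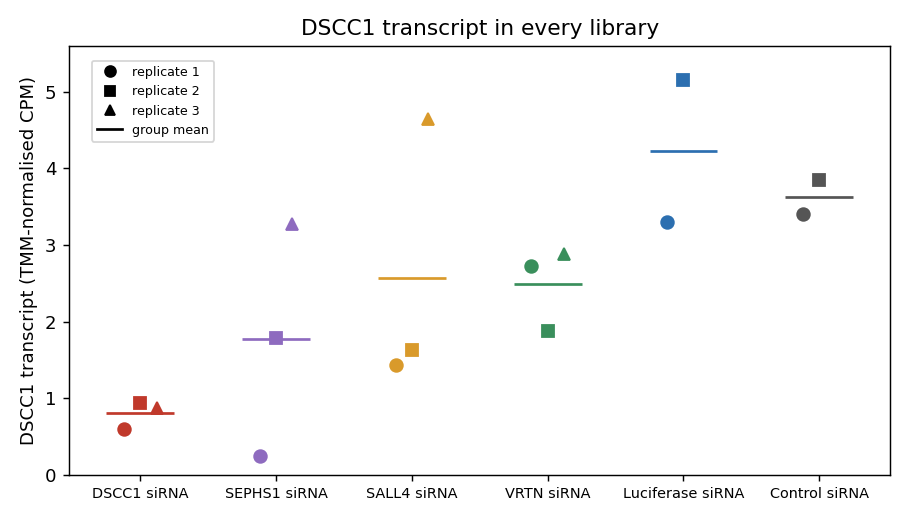
TMM-normalised CPM of the DSCC1 transcript (y axis) in each of the 16 libraries, grouped by siRNA (x axis), with symbols for the replicate number and a line at each group's mean. The 3 DSCC1 siRNA libraries lie between 0.601 and 0.938 CPM, all below the 4 controls at 3.30 to 5.16 CPM, and most libraries of other siRNAs lie between these ranges, while 1 SEPHS1 library, at 0.245 CPM, lies below all 3.

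None of the other 6 subunits of CTF18-RFC was called, beside 0.0455% of all genes, and 2 of the 6 were shown to lie close to the controls. CHTF18, the large subunit that names the complex, had 26.4, 19.0 and 25.6 CPM with DSCC1 siRNA and 34.7, 27.0, 24.4 and 19.3 CPM in Luciferase replicates 1 and 2 and Control replicates 1 and 2. The groups overlapped, with a log2 fold change of -0.13 (SE 0.20). CHTF8, which binds DSCC1 directly, averaged 65.0 ± 7.5 CPM with DSCC1 siRNA and 75.5 ± 7.3 CPM in the controls (SD, n = 3 and 4). To ask what stayed unchanged, each gene was also tested for lying within 1.5-fold of the controls in either direction, and a gene that passed is called held. CHTF8 (log2 fold change -0.21, 95% interval -0.49 to 0.07) and the shared subunit RFC5 (-0.02, interval -0.48 to 0.45) were held. The intervals of CHTF18, RFC2 and RFC3 stayed inside the margin without passing the adjusted test, and that of RFC4, the least abundant of them with 5.23 ± 2.41 and 6.27 ± 1.96 CPM, reached from -1.09 to 0.58.

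Among the other loaders and the clamps, 0 of 7 genes were called. PCNA, the clamp, was held, at 54.7 ± 9.3 CPM with DSCC1 siRNA and 50.4 ± 3.5 CPM in controls. RFC1, which loads PCNA in the main replicative loader, ATAD5, which unloads it, and RAD17, which loads the 9-1-1 checkpoint clamp, each overlapped the controls. RAD9A, a part of that checkpoint clamp, had the smallest p of the list, with 17.6, 15.8 and 28.97 CPM after DSCC1 siRNA and 29.1, 23.5, 34.3 and 22.3 CPM in the controls (log2 fold change -0.39, SE 0.23).

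Of the 18 cohesin subunits and regulators, 0 were called by edgeR, and 1 had an unadjusted p under 0.05. The list's median log2 fold change was -0.19, beside 0.0017 over all genes tested, and 4 of its 18 members had a positive value. The ring subunits SMC1A and RAD21 were held, as were the loader subunit MAU2, the protector CDCA5 (sororin) and the separase ESPL1. NIPBL, the cohesin loader, was at 13.4, 16.5 and 13.1 CPM with DSCC1 siRNA and at 22.1, 17.3, 18.1 and 18.1 CPM in the controls. WAPL, which releases cohesin from chromatin, was at 11.1 CPM in all 3 DSCC1 siRNA libraries and between 13.4 and 16.9 CPM in the controls. These and PDS5A were the 3 members whose DSCC1 siRNA libraries all lay below the controls, against 4.49% of all genes, and STAG1 was the 1 member above them. None of these differences passed the test, with adjusted p of 0.843 for NIPBL and WAPL. PTTG1, the separase inhibitor securin, averaged 62.7 ± 9.5 and 51.3 ± 8.9 CPM with overlapping groups (log2 fold change 0.30, SE 0.14).

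Genes of replication, repair and division were described in the same way. Among 44 genes of the G1/S transition and DNA replication, 0 were called and 26 were held, with a median log2 fold change of 0.08. TYMS, which makes thymidylate, had 24.3, 19.3 and 16.5 CPM with DSCC1 siRNA and 40.03, 29.5, 33.6 and 22.1 CPM in the controls, the smallest p of that list (log2 fold change -0.64, SE 0.22, adjusted p = 0.595). Against the controls numbered 1 alone, edgeR called TYMS lower (log2 fold change -0.87, adjusted p = 0.0433). Against those numbered 2 its log2 fold change was -0.35 and the groups overlapped. Among 14 tested genes of fork protection and the replication checkpoint, 0 were called and 3 were held (21.4%). The kinase WEE1 came closest to a call there, with 34.0, 34.0 and 30.1 CPM against 50.8, 40.02, 44.5 and 29.5 CPM. Among 30 genes of homologous recombination and the Fanconi pathway, 0 were called and 6 were held (20%). RAD50, part of the complex that senses double-strand breaks, was at 39.1, 37.4 and 35.3 CPM, above all controls at 25.8, 31.9, 27.0 and 29.4 CPM (log2 fold change 0.39, SE 0.18, adjusted p = 0.843). Among 35 genes of G2/M and mitosis, 0 were called and 20 were held (57.1%). For UBE2C, which drives the destruction of cyclins, the values were 466, 432 and 466 CPM with DSCC1 siRNA and 395, 362, 452 and 361 CPM in the controls.

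Over the whole transcriptome, 9 of 19772 tested genes were called (0.0455%), all 9 higher with DSCC1 siRNA and 0 lower. An unadjusted edgeR p under 0.05 was reached by 1155 genes (5.84%), 667 of them higher (3.37%) and 488 lower (2.47%). The DSCC1 siRNA libraries lay all above the 4 controls for 912 genes (4.61%) and all below them for 888 (4.49%), together 9.1%. DESeq2 called 51 genes higher and 1 lower (0.263%), limma-voom with quality weights 38 higher and 3 lower (0.207%), and edgeR fitted on only the groups compared 32 higher and 5 lower (0.207%). The 9 called genes were POLR2L, NDUFA3, MT-ND3, 4 ribosomal protein genes and 2 processed pseudogenes. Their transcripts are 75 to 892 bases long, and for each of the 9 the groups did not overlap. POLR2L, RPL28, RPS14, RPL41 and both pseudogenes also lay above every control in every library with SALL4 or VRTN siRNA, harvested at 48 h. POLR2L, for example, had 87.5 to 103 CPM with SALL4 siRNA and 82.2 to 102 CPM with VRTN siRNA. MT-ND3 overlapped the controls with both of these siRNAs, NDUFA3 with SALL4 siRNA and RPL18 with VRTN siRNA.

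**Figure D2:**
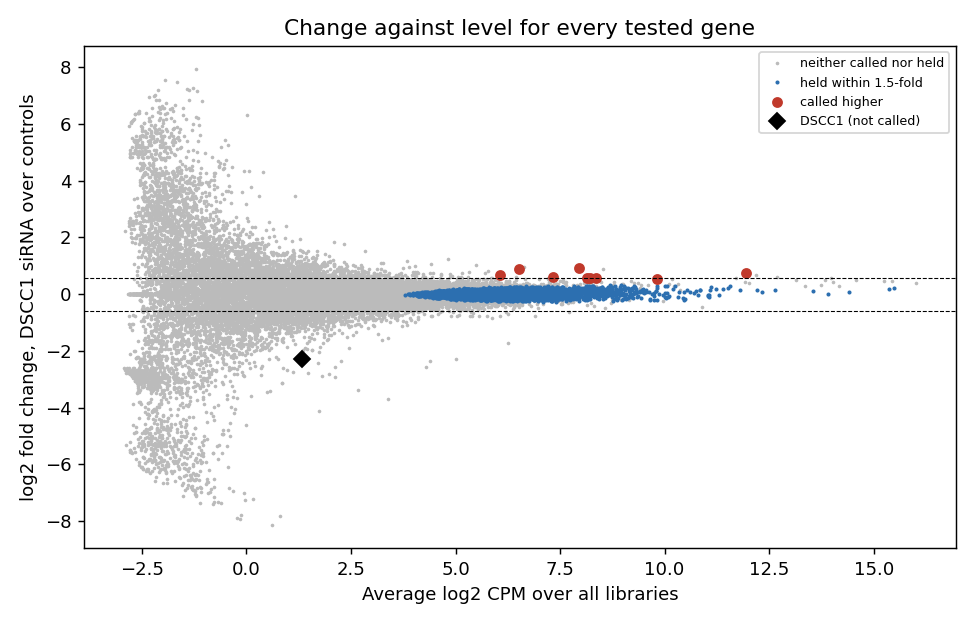
Log2 fold change of DSCC1 siRNA over the controls (y axis) against the average log2 CPM (x axis) for the 19772 tested genes. Dashed lines mark 1.5-fold either way, the 9 called genes lie near or above the upper line at 6 log2 CPM or more, held genes fill the right side, and DSCC1 lies at a log2 fold change of -2.27 among genes of low count.

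POLR2L, a small subunit shared by the 3 nuclear RNA polymerases, had 123, 111 and 114 CPM with DSCC1 siRNA and 62.4, 59.2, 64.0 and 64.0 CPM in Luciferase replicates 1 and 2 and Control replicates 1 and 2. Every DSCC1 siRNA library was far above every control (log2 fold change 0.90, SE 0.12, adjusted p = 0.000255, edgeR). NDUFA3, an accessory subunit of respiratory complex I, had 80.1, 77.4 and 73.3 CPM against 46.5, 45.1, 48.6 and 53.03 CPM (log2 fold change 0.67, SE 0.13, adjusted p = 0.0470). MT-ND3, a complex I subunit encoded in the mitochondrial genome, had 3596, 3778 and 4740 CPM against 1909, 2578, 2630 and 2486 CPM (log2 fold change 0.75, SE 0.15, adjusted p = 0.0482). The highest MT-ND3 library, replicate 3, was also the library with the highest mitochondrial share of counts.

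The 4 called ribosomal protein genes encode parts of the cytosolic ribosome. RPL28, of the large subunit, had 1036, 952 and 1079 CPM with DSCC1 siRNA against 684, 675, 757 and 703 CPM in the controls. RPS14, of the small subunit, had 196, 187 and 168 CPM against 112, 120, 116 and 138 CPM. RPL18 had 329, 322 and 322 CPM against 204, 230, 220 and 221 CPM, and RPL41, which encodes a very short protein, 409, 319 and 354 CPM against 227, 254, 239 and 260 CPM. Their log2 fold changes were 0.54, 0.60, 0.57 and 0.56, with SEs of 0.10 to 0.12 and an adjusted p of 0.0470 each (edgeR).

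The 2 pseudogenes are uncertain, because their sequence is shared with expressed genes and how shared reads were counted is not stated. RPL23AP74, a copy of RPL23A on chromosome 17, had 351, 246 and 258 CPM with DSCC1 siRNA against 143, 161, 143 and 160 CPM in the controls (log2 fold change 0.91, SE 0.12, adjusted p = 0.000255, edgeR). Its ratio to RPL23A was 0.372 to 0.449 with DSCC1 siRNA and 0.262 to 0.308 in the controls. AC090498.1, a 75-base copy on chromosome 7, moved with RPL41 (log2 fold change 0.57), and their ratio was 0.901 to 0.906 with DSCC1 siRNA and 0.873 to 0.915 in the controls.

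**Figure D3:**
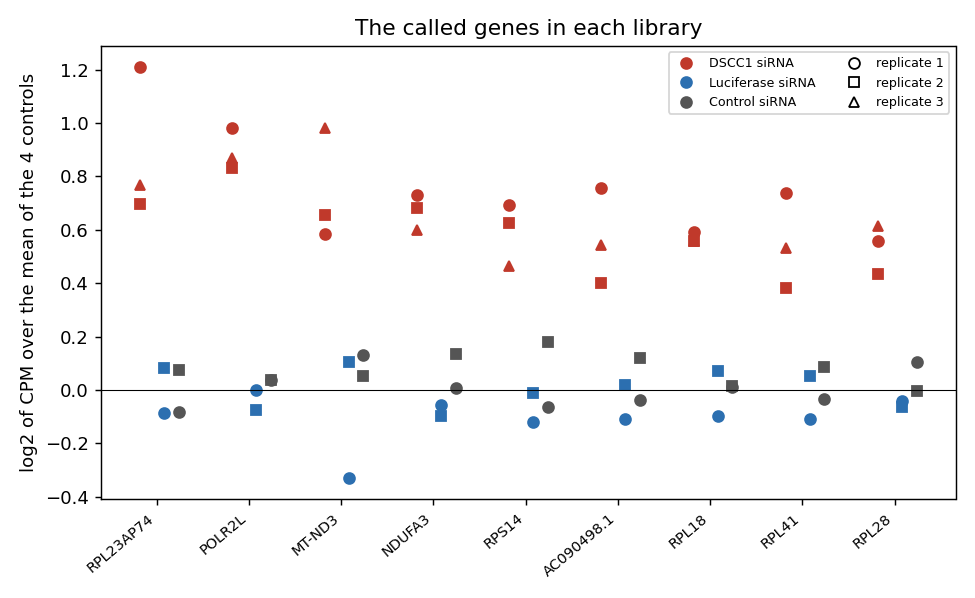
Log2 of each library's TMM-normalised CPM over the mean of the 4 controls (y axis) for the 9 called genes (x axis), DSCC1 siRNA left of the controls and symbols for the replicate number. For every gene the 3 DSCC1 siRNA points lie above the 4 control points, and the spread is widest for RPL23AP74, with 351, 246 and 258 CPM.

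The start sites of the 6 called protein-coding genes of the nucleus are shown because ribosomal protein transcripts are known for beginning with a run of pyrimidines, the 5′ TOP motif through which their translation is controlled in mammals. RefSeq gives a promoter for all 6 (GRCh38.p14). Each line holds 50 bases before and 25 from the start site on, 5′ to 3′ on the gene's own strand, and capitals mark CTCT where it stands exactly at the start.
RPL28: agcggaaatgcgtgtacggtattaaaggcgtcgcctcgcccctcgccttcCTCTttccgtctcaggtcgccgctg
RPS14: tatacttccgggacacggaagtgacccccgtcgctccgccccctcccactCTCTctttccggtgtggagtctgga
RPL18: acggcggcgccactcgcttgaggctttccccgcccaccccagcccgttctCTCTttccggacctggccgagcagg
RPL41: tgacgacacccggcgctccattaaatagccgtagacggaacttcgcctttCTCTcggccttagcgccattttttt
POLR2L: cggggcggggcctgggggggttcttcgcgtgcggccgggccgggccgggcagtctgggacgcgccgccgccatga
NDUFA3: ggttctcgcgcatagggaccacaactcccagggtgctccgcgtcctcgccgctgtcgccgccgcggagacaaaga

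The windows lie at chr19:55385882-55385956 on the plus strand for RPL28, chr5:150449715-150449789 on the minus strand for RPS14, chr19:48619154-48619228 on the minus strand for RPL18 and chr12:56116583-56116657 on the plus strand for RPL41. Those of POLR2L and NDUFA3 lie at chr11:842505-842579 on the minus strand and chr19:54102805-54102879 on the plus strand. The 4 ribosomal protein genes begin with CTCT on the sense strand and the other 2 do not. Of all 35116 promoters in the RefSeq table, 1.41% begin so, as do 15 of the 60 ribosomal protein genes of the list that have a promoter there. The longer run CTCTTTCC stands somewhere in the 300-base promoter, on either strand, for 3 of the 6 genes and for 3.04% of all promoters. CTCT is part of that longer motif.

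Most other ribosomal protein genes had higher means with DSCC1 siRNA without passing the test. Of 75 tested members of the list, from which RPL41 is absent, 3 were called, all higher. The DSCC1 siRNA libraries lay above all controls for 20 members and below them for 1. That is 28% of the list, beside 9.1% of all genes. Among all genes at 8 log2 CPM or more, they lay above for 28.8% and below for 4.57%. The median log2 fold change was 0.12, and 60 of 75 members had a positive value. Many were still close to the controls: 47 of 75 were held within 1.5-fold. The members' summed level was 24957 to 26472 CPM with DSCC1 siRNA and 22715 to 24594 CPM in the controls. RPL23 had the largest difference at a well-measured level, with 57.1, 39.3 and 47.5 CPM against 20.2, 25.2, 19.1 and 28.8 CPM (log2 fold change 1.04, SE 0.23, adjusted p = 0.0837, edgeR). RPL13 lay in the other direction, at 815 ± 42 and 937 ± 89 CPM (log2 fold change -0.20, SE 0.09).

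All 13 protein-coding transcripts of the mitochondrial genome had higher means with DSCC1 siRNA, and 1 passed the test. The median log2 fold change was 0.46, and 9 had DSCC1 siRNA libraries above every control. That is 69.2% of the list, beside 9.1% of all genes on either side. Of all genes at 8 log2 CPM or more, 28.8% lay above every control. MT-ND4, the most abundant, had 73675 ± 13597 CPM with DSCC1 siRNA and 56122 ± 9054 CPM in the controls. MT-ATP8, an ATP synthase subunit, had 5786, 6512 and 8666 CPM against 3568, 5274, 4595 and 5070 CPM (log2 fold change 0.60, SE 0.16, adjusted p = 0.281). The cytochrome oxidase genes MT-CO1 and MT-CO3 overlapped the controls and were held, at log2 fold changes of 0.22 and 0.17. MT-ND6 was near the floor, with group means of 0.196 and 0.017 CPM, and its fold is not usable.

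Nuclear genes for respiratory chain subunits gave a smaller median. None of 36 was called, and the median log2 fold change was 0.12. Above all controls lay 9 and below them 0, which is 25% of the list beside 9.1% of all genes. Among all genes at 6 to 8 log2 CPM, 10.4% lay above and 5.77% below. NDUFA3 is not on this list. COX5B, of cytochrome oxidase, had 98.1, 90.5 and 74.5 CPM with DSCC1 siRNA against 68.2, 58.0, 64.7 and 66.2 CPM (log2 fold change 0.45, SE 0.16, adjusted p = 0.622). NDUFA4, also of cytochrome oxidase, had the smallest p of the list, with 97.3, 102 and 70.8 CPM against 65.1, 71.7, 65.9 and 67.1 CPM.

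Abundance and transcript length moved with these results. Among 372 genes at 8 log2 CPM or more, the DSCC1 siRNA libraries lay above all controls for 28.8% and below them for 4.57%. Among 5765 genes under 0 log2 CPM the shares were 2.22 and 3.10%. Among protein-coding genes of at least 4 log2 CPM, the median log2 fold change was 0.15 for 129 genes with transcripts under 700 bases and -0.03 for 1413 genes over 4000 bases. It fell in step through the 4 classes between them. Without the ribosomal protein and mitochondrial genes it was 0.06 for the shortest class and 0.10 for the next, of 700 to 1000 bases. With each library's trend on transcript length entered as an offset, an alternative chosen after seeing the data, 2 genes were called (0.0101%), POLR2L and RPL23AP74. The same 2 kept the call in all 20 alternatives, while each of the other 7 lost it in 8 to 10 of them, among them every fit without 1 of the DSCC1 siRNA libraries.

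What stayed close to the controls could be shown mostly for well-expressed genes. By the 1.5-fold test 3272 genes (16.5%) were held. Of 5639 genes at 4 log2 CPM or more, 57.9% were held, against 8 of 4474 genes from 2 to 4 log2 CPM, 0 of 3894 from 0 to 2 and 0 of 5765 below 0. In the lower classes the counts were too few to decide, and a gene there that is neither called nor held is not shown to be the same. At 6 to 8 log2 CPM 85.8% were held. The 6 narrowest intervals were taken among the held genes only. They belonged to the actins ACTB and ACTG1, the glycolytic enzyme gene GAPDH and the tubulins TUBB, TUBA1B and TUBA1A. By limma-voom with quality weights, GAPDH and TUBB were called higher, each by a log2 fold change of 0.16 (adjusted p = 0.0155 and 0.0364). ACTG1 had 5479, 5295 and 5553 CPM with DSCC1 siRNA and 5210, 5010, 5469 and 5153 CPM in the controls (log2 fold change 0.06, SE 0.08). Among genes of at least 4 log2 CPM, 7 differed by 2-fold or more, and 0 of these were called.

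Primed and core pluripotency genes, taken at any level, were held at a rate near that of all genes at 4 log2 CPM or more. Of 31 tested genes of the primed and core network, 0 were called by edgeR against all 4 controls, beside 0.0455% of all genes. Among the 31, which were not chosen by level, 17 were held (54.8%). This stands beside 16.5% of all tested genes and 57.9% of those at 4 log2 CPM or more. POU5F1 had 186, 192 and 206 CPM with DSCC1 siRNA and 207, 207, 188 and 189 CPM in the controls (log2 fold change -0.02, SE 0.11, 95% interval -0.24 to 0.19). SOX2 had 185, 199 and 220 CPM against 204, 205, 178 and 207 CPM (log2 fold change 0.02, interval -0.20 to 0.24). The groups overlapped for both factors. NANOG had 70.0, 64.7 and 75.2 CPM against 98.2, 73.1, 91.4 and 81.4 CPM, and it was neither called nor held (log2 fold change -0.30, interval -0.63 to 0.03). The DNA methyltransferase DNMT3B, the zinc finger factors SALL4 and PRDM14 and the NODAL co-receptor TDGF1 were held as well. LIN28A, an RNA-binding repressor of let-7 miRNAs, came closest to that call. It had 1218, 1215 and 1290 CPM, above 838, 1055, 952 and 1036 CPM in the controls (log2 fold change 0.36, SE 0.09, adjusted p = 0.279, edgeR). DESeq2 and limma-voom called LIN28A higher (adjusted p = 0.00164 and 0.00718). So did edgeR against the controls numbered 1 alone (0.0350), but not against those numbered 2 (log2 fold change 0.25). SALL1, of the same list, was called lower against the controls numbered 1 (log2 fold change -0.87, adjusted p = 0.00936, edgeR) and overlapped those numbered 2. TRIM71, itself a let-7 target, lay below all controls at 122 ± 8 and 154 ± 19 CPM (log2 fold change -0.34, SE 0.13, adjusted p = 0.753).

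**Figure D4:**
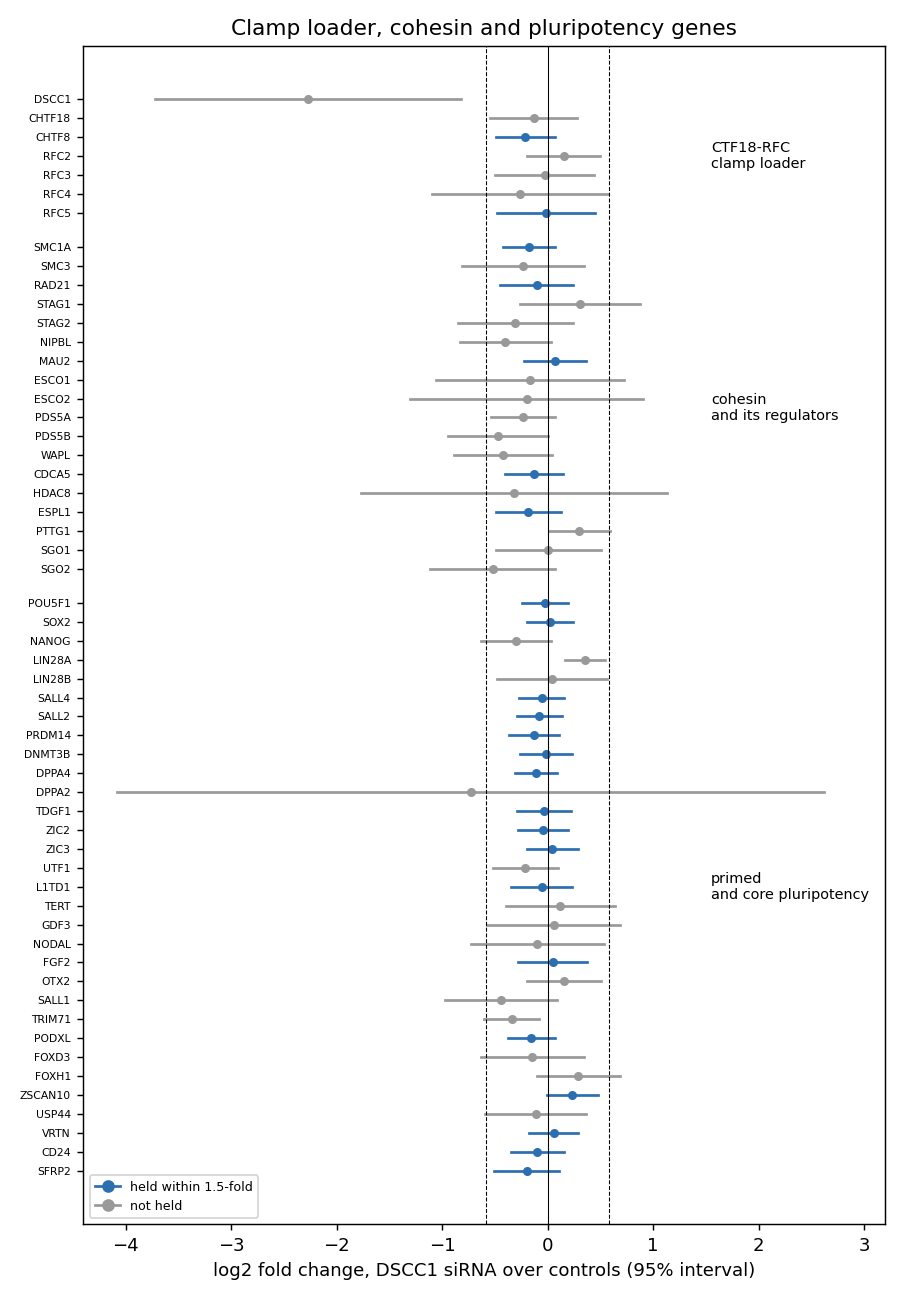
Log2 fold change of DSCC1 siRNA over the controls with its 95% interval (x axis) for the tested members of 3 gene lists (y axis), blue where the gene was held within 1.5-fold, whose bounds are dashed. The interval of DSCC1 lies left of 0, from -3.72 to -0.82, whereas 2 of 7 clamp loader, 5 of 18 cohesin and 17 of 31 pluripotency genes were held.

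Against all 4 controls, edgeR called none of 108 tested markers of other cell types, in 8 lists for lineages, epithelium and fibroblasts. Against replicate 1 of the controls alone, 5 of them were called, beside 0.508% of all genes. All 5 were lower: POU3F1, NGFR, ACTA2, VIM and ZEB2. Against replicate 2, POU3F1, NGFR, ACTA2 and ZEB2 overlapped the controls, and VIM lay above them (log2 fold change 0.48). The summed level of the primitive streak list was 18.4 to 27.1 CPM with DSCC1 siRNA and 21.3 to 28.6 CPM in the controls, and that of the trophoblast and amnion list 27.3 to 41.9 and 27.2 to 33.7 CPM. Both ranges overlapped. The endoderm list summed to 11.2 to 14.0 CPM against 6.36 to 12.1 CPM, most of it from FOXA2. Its defining factor SOX17 had 0 counts in every DSCC1 siRNA library. For 0 of the list's 11 tested members did the DSCC1 siRNA libraries all lie below the controls. EVX1, a streak factor, had 0 counts in all 3 DSCC1 siRNA libraries and 15, 8, 12 and 7 counts in the controls. Its control mean was 3.02 times the highest floor of 3 counts in a DSCC1 siRNA library, a ratio that ignores the controls' spread. The 95% interval of the EVX1 log2 fold change ran from -11.9 to -0.70 (adjusted p = 0.827, edgeR). The naive pluripotency list had 0 of 13 tested genes called or held. Collagen, vimentin and smooth muscle transcripts such as COL1A1, VIM and TAGLN were abundant in both groups, with summed levels for the fibroblast list of 2852 to 3189 CPM and 2584 to 3211 CPM.

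Genes of apoptosis gave no call. Of 22 tested members of the list, 0 were called by edgeR and 1 had an unadjusted p under 0.05, 3 were held, and the median log2 fold change was -0.10 with 8 positive values. CASP8, the initiator caspase of death receptors, had 0 counts in all 3 DSCC1 siRNA libraries and 8, 28, 25 and 30 counts in the controls. The control mean was 6.08 times the highest floor of 3 counts in a DSCC1 siRNA library, a ratio that ignores the controls' spread. The 95% interval of the CASP8 log2 fold change ran from -12.5 to -2.19, and the gene did not pass the test (adjusted p = 0.622, edgeR). CASP8 also had 0 CPM in 2 of the 3 SEPHS1 siRNA libraries.

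Responses to double-stranded RNA and to amino acid stress also gave no called gene, although the summed level of both lists lay above the controls. Of 17 tested interferon and double-stranded RNA response genes 0 were called, 3 lay above all controls and 1 below, which is 23.5% of the list beside 9.1% of all genes. The list summed to 1725 to 2044 CPM with DSCC1 siRNA and 1473 to 1634 CPM in the controls, most of it from IFITM3, and its median log2 fold change was 0.24. IFITM3, a membrane protein that blocks virus entry, had 1399, 1196 and 1505 CPM with DSCC1 siRNA and 1023, 1110, 1044 and 1132 CPM in the controls (log2 fold change 0.34, SE 0.11, adjusted p = 0.509). The RNA interference machinery, taken at any level, had 0 of 14 genes called and 8 held (57.1%). Held were 16.5% of all tested genes and 57.9% of those at 4 log2 CPM or more. In the ATF4 stress list 0 of 32 were called and 12 were held, the median log2 fold change was -0.03, and the summed level was 3877 to 4006 CPM against 3315 to 3858 CPM. The amino acid transporter chain SLC3A2 lay above all controls, at 268, 270 and 278 CPM against 179, 222, 213 and 258 CPM (log2 fold change 0.32, SE 0.11, adjusted p = 0.602). Among 15 genes of the unfolded protein response 0 were called and 6 were held (40%). Among 20 of cholesterol synthesis 0 were called and 16 were held (80%).

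In the glycolysis and hypoxia list 0 of 28 genes were called, while the DSCC1 siRNA libraries were above all controls for 7 and below for 2, which is 32.1% of the list beside 9.1% of all genes. The share above all controls rose with abundance, to 10.4% of all genes at 6 to 8 log2 CPM and 28.8% at 8 or more. LDHA, which makes lactate, had 33.1, 32.5 and 31.1 CPM with DSCC1 siRNA, against 10.1 and 16.1 CPM in controls numbered 1 and 26.7 and 25.5 CPM in those numbered 2. SLC2A1, the glucose transporter GLUT1, had 142, 141 and 146 CPM against 242 and 272 CPM in controls numbered 1 and 186 and 176 CPM in those numbered 2. GPI, of glycolysis, had 338, 325 and 352 CPM against 229, 278, 270.5 and 296 CPM (log2 fold change 0.34, SE 0.11, adjusted p = 0.486). In the list of FGF and MAPK feedback genes 0 of 15 were called, as were 0 of 15 NODAL and TGF-beta targets, 0 of 13 Wnt targets and 0 of 15 common reference transcripts. The immediate early gene EGR1 had 560, 531 and 534 CPM with DSCC1 siRNA, 189 and 173 CPM in controls numbered 1 and 414 and 398 CPM in those numbered 2 (log2 fold change 0.88, SE 0.40, adjusted p = 0.843). FOS had the same order, at 147, 138 and 135 CPM, then 64.6 and 36.8 CPM, and 108 and 82.8 CPM. DUSP6, a phosphatase induced by FGF signalling, lay the other way, with 25.6, 19.7 and 24.3 CPM against 37.0 and 61.9 CPM in controls numbered 1 and 22.9 and 29.8 CPM in those numbered 2.

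Which controls are used decides how much appears to change. Against replicate 1 of Luciferase and Control alone, 109 genes were called (0.508%), 54 higher and 55 lower with DSCC1 siRNA. Against replicate 2 of both alone, 4 genes were called (0.0185%), all higher. Of these, 3 were among the genes called against all controls. The other, MYL4, had 0 CPM in the controls numbered 2 and was called lower against replicate 1. For 41 of the 55 genes lower than controls numbered 1, the DSCC1 siRNA libraries overlapped the controls numbered 2. The median log2 fold change of these 55 was -1.31 against the controls that chose them and -0.11 against the others. The 54 higher genes had medians of 0.87 and 0.45, and 43 of them lay above the controls numbered 2 as well. Among the lists, 8 of 13 mitochondrial transcripts were called higher against the controls numbered 1. Of 15 FGF and MAPK feedback genes, EGR1 and FOS were called higher against them and DUSP5, DUSP6 and FOSL1 lower. Replicate 2 against replicate 1 of the controls gave 3 called genes (0.0152%), all lower, in a comparison chosen after seeing the data.

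The genes behind this split include developmental factors and matrix genes. GBX2, a neural patterning factor, had 0.139, 1.13 and 0.694 CPM with DSCC1 siRNA, 16.8 and 15.7 CPM in controls numbered 1 and 0.480 and 1.497 CPM in those numbered 2. FST, which binds activin, had 5.64, 2.15 and 1.43 CPM against 34.0 and 31.5 CPM in controls numbered 1 and 2.96 and 4.01 CPM in those numbered 2. TNC, an extracellular matrix protein, had 6.20, 4.34 and 6.53 CPM against 52.5 and 41.6 CPM and against 7.96 and 8.13 CPM. NGFR, on the neural crest marker list, had 46.5, 56.4 and 63.8 CPM against 145 and 128 CPM and against 54.3 and 51.3 CPM. For each of these genes except TNC the DSCC1 siRNA libraries overlapped the controls numbered 2. POLR2L did not follow the split, with control values of 59.2 to 64.0 CPM under both numbers.

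**Figure D5:**
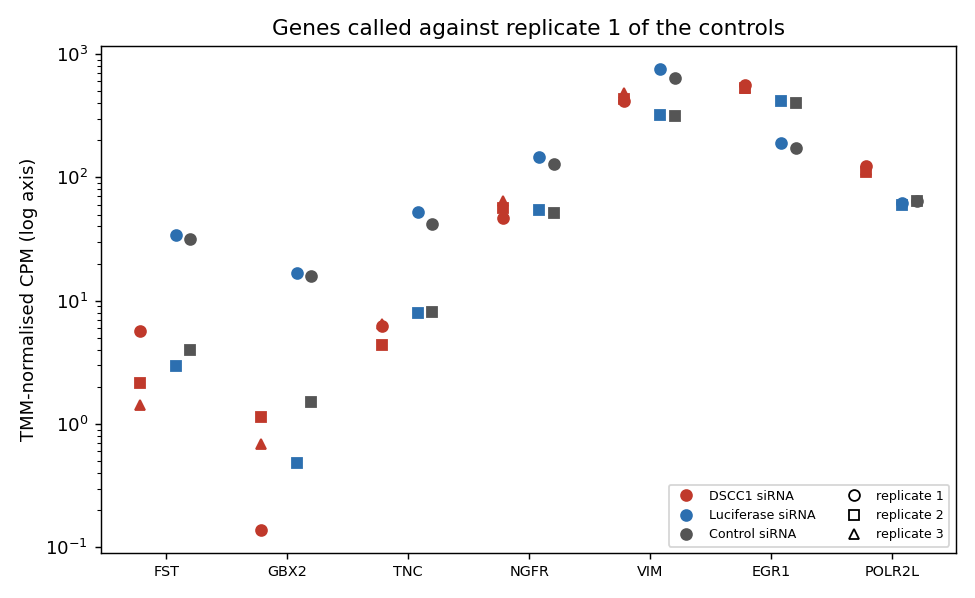
TMM-normalised CPM (log y axis) of 7 genes called against replicate 1 of the controls, in the 3 DSCC1 siRNA libraries (left of each gene) and the 4 controls, with symbols for the replicate number. For FST, GBX2, TNC, NGFR and VIM the circles of the controls lie above the squares, EGR1 has the opposite order, and POLR2L has all 4 controls at 59.2 to 64.0 CPM.

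The SEPHS1 siRNA libraries, also of an esiRNA and also harvested at 72 h, offered a comparison at matched time. SEPHS1 is an enzyme related to selenophosphate synthase. With DSCC1 siRNA 53 genes were called against them (0.268%), 47 higher (0.238%) and 6 lower (0.0303%). Among the 9 genes called against the controls, MT-ND3 alone was also called here, in the opposite direction, with 3596, 3778 and 4740 CPM after DSCC1 siRNA against 5339, 6748 and 10086 CPM after SEPHS1 siRNA (log2 fold change -0.87, SE 0.16, adjusted p = 0.00813, edgeR). POLR2L stood at 123, 111 and 114 CPM against 88.0, 115 and 115 CPM (log2 fold change 0.13, SE 0.13, adjusted p = 0.812). RPL28 and RPS14 differed by -0.04 (SE 0.11) and -0.05 (SE 0.12). The other 8 genes did not pass the test here, which does not show that the siRNAs act alike. The mitochondrial share of counts was 33.6 to 39.2% with DSCC1 siRNA and 38.7 to 45.5% with SEPHS1 siRNA, and its part in these differences was not tested.

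Most genes called against SEPHS1 siRNA were higher with DSCC1 siRNA. INPP5J, an inositol phosphatase, had 17.3, 16.9 and 20.0 CPM with DSCC1 siRNA against 1.27, 0.682 and 0.467 CPM with SEPHS1 siRNA, and 10.3 to 15.4 CPM in the controls (log2 fold change over SEPHS1 siRNA 4.47, SE 0.37, adjusted p = 1.22e-09). TRANK1, IKBKE, an innate immune kinase, HMCN2 and the pseudogene SEPHS1P4 were also higher than with SEPHS1 siRNA, by 3.09, 3.26, 2.62 and 2.81 on the log2 scale. SEPHS1P4 is a copy of the gene that the other siRNA targets, so its reads are uncertain. TMEM41B, a lipid scramblase of the endoplasmic reticulum, had 4.72, 3.40 and 4.86 CPM with DSCC1 siRNA against 11.2, 11.5 and 13.1 CPM with SEPHS1 siRNA, and lay below the controls as well, at 7.51, 8.995, 6.87 and 9.18 CPM. It was called against SEPHS1 siRNA (log2 fold change -1.47, SE 0.33, adjusted p = 0.0396) and not against the controls (-0.91, SE 0.31, adjusted p = 0.595). The kinase STK4, the selenoprotein SELENOF and CLDND1 were lower than with SEPHS1 siRNA, with log2 fold changes of -0.95, -1.07 and -0.86.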

How the data were processed

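Polyadenylated RNA of 16 libraries was sequenced as 80-base single ends with a Lexogen SENSE kit, per the labels' protocols. The deposited table holds raw counts per gene, and the submitters' processing notes name STAR 2.4.0.1, HTSeq 0.9.1 and the build GRCh38. The annotation release, the strand setting and the handling of shared reads are not given in the sources used here. The table has 60675 Ensembl identifiers, 33486 of them without a count. A gene name table gave symbols for 41209 of the 60675, GENCODE 29 those of 15846 more as well as all positions, and 3620 have no name.

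filterByExpr kept 19772 genes and TMM gave the scaling. The quasi-likelihood test of edgeR 4.0.16 (R 4.3.3) was fitted over all 16 libraries in 6 groups, without covariates. DSCC1 was set against the mean of Luciferase and Control, with a call at a Benjamini-Hochberg adjusted p under 0.05 over all tested genes. SEs are the absolute log2 fold change over the square root of F. Where that change was under 0.05, both values came from the margin-shifted fit, described next, with the larger change. Genes were held where both one-sided quasi-likelihood tests, made by shifting the offsets of the DSCC1 libraries by the 1.5-fold margin, passed after adjustment. The design had named an SE from F for this, which failed at low counts. The common dispersion was 0.347. These tests were checked on simulated data.

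The comparison and the 32 gene lists were chosen with earlier results of these data known. Named are DSCC1, the largest called changes at 2 log2 CPM or more outside the control range, and all CTF18-RFC members. From each other list, the called members or the 1 with the smallest p are named. Also named are 3 core factors, the 6 narrowest intervals among held genes and 5 genes a direction against SEPHS1 siRNA. Further genes were named after their values were seen. A list and some genes are not reported here. Same-numbered DSCC1 and control libraries did not deviate together (correlations -0.025 to 0.026), so the numbers were not taken as pairs. Luciferase and Control libraries of the same number did deviate together (correlation 0.369), which the fit without covariates left in the spread.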

Additional observations from a re-analysis of the deposited data

How the results depend on the processing

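The log2 fold change of the DSCC1 transcript stayed between -2.05 and -2.59 over all alternatives. It was past the adjusted threshold in none, and DESeq2 gave no adjusted p for it. The number of genes called against the controls, 9 as reported, was 52 with DESeq2 1.42.0, 41 with limma-voom from limma 3.58.1, 37 with only the groups compared, 99 with no filter on low counts, 2 with a stricter filter, 2 with the length offset, 2 against Luciferase alone, 2 against Control alone, 109 against replicate 1 of the controls and 4 against replicate 2. Leaving out 1 library gave 2 to 98 calls: 2 without any 1 of the DSCC1 siRNA libraries, 98 without Luciferase replicate 2, 47 without Control replicate 2 and 19 without Control replicate 1. The replicate block, for numbers that do not pair the DSCC1 siRNA libraries with the controls, gave 15 calls. Genes held, 3272 as reported, numbered 8188 within 2-fold, 1526 against Luciferase alone, 1688 against Control alone, 1127 and 1716 against replicates 1 and 2 of the controls, and 1757 to 2614 with 1 library left out, the lowest without DSCC1 replicate 2. Calls against SEPHS1 siRNA, 53 as reported, were 188 with DESeq2, 24 with limma-voom, 151 with no filter, 147 with the replicate block and 22 to 71 with 1 library left out. Control against Luciferase gave 0 to 1. ZEB2, a repressor of epithelial genes near the floor with DSCC1 siRNA (log2 fold change -4.10), turned to 0.99 against replicate 2 of the controls, and ran from -8.996 without DSCC1 replicate 1 to 0.20 without Control replicate 1. It was called lower with no filter (adjusted p = 2.46e-05), against replicate 1 of the controls (0.000188) and without Luciferase replicate 2 (0.000898) or Control replicate 2 (0.00215), all edgeR. The causes of these changes were not tested. Genes under 4 log2 CPM are limited by depth.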

Other observations

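Some genes missed the call and were called higher by DESeq2, limma-voom and edgeR on only the groups compared, all chosen here after their values were seen. EIF1, which selects start codons, had a log2 fold change of 0.46 (adjusted p = 0.0837, edgeR on all groups, against 2.35e-05 with DESeq2). The proline isomerase PPIA, often used as a stable reference, had 332, 316 and 332 CPM with DSCC1 siRNA and 210, 242, 241 and 230 CPM in the controls (log2 fold change 0.50, adjusted p = 0.0837). PPIA also lay above every control with the other siRNAs, at 339 to 365 CPM with SALL4, 294 to 361 with VRTN and 365 to 513 with SEPHS1 siRNA. The membrane protein partner S100A10, the transcription cyclin CCNK and the small heat shock protein HSPB1 had log2 fold changes of 0.52, 0.48 and 0.54. POLR2I, another RNA polymerase II subunit, had 0.56 (adjusted p = 0.142) and was called with limma-voom and with only the groups compared.

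In the other direction, NEMP1, a nuclear envelope protein, had a log2 fold change of -0.62 (adjusted p = 0.130) and was called lower by limma-voom (0.0377) and by edgeR on only the groups compared (0.0457).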
